A study of Mus musculus with 7 samples.

Results

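The Wnt ligands, Frizzled receptors and modulators of Wnt signaling were followed in RNA sequencing of the neonatal mouse dorsal midbrain after deletion of Brn3b (Pou4f2), a POU domain transcription factor. Members were chosen by gene symbol, as protein-coding genes, and are 18 Wnt ligands, which are not the whole ligand family, the Frizzled family, the co-receptors and alternative receptors Lrp5, Lrp6, Ryk, Ror1 and Ror2, the secreted modulators Dkk1 to Dkk4, Sfrp1, Sfrp2, Sfrp4, Sfrp5, Frzb (also called Sfrp3) and Wif1, and the intracellular effectors Axin1, Axin2, Ctnnb1, Lef1, Tcf7 and Tcf7l1. This gave 49 of the 52636 genes counted: 18 ligands, 10 Frizzled receptors, 5 co-receptors and other receptors, 10 secreted modulators and 6 intracellular and nuclear effectors.

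The study compared control mice, which carried 1 conditional and 1 wild-type Brn3b allele (Brn3b flox/+ with En1-Cre, labeled heterozygote), with Brn3b cKO mice, which carried 1 conditional and 1 null allele (Brn3b flox/- with En1-Cre, labeled homozygote). En1-Cre, active in the midbrain, was thus present in every mouse of both groups. So was the conditional allele, which after recombination yields an alkaline phosphatase reporter in place of Brn3b. Each library came from the dissected dorsal midbrain of a neonatal mouse, with control 1 and control 3 at postnatal day 4 (P4), control 2 at P3, cKO 1 and cKO 3 at P4, and cKO 2 and cKO 4 at P2. P2 mice were present only among the cKO, and P3 only among the controls, as control 2. Effects of these ages and of genotype therefore cannot be told apart in control 2, cKO 2 and cKO 4.

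Wnt proteins are secreted lipid-modified ligands that bind Frizzled receptors. With the co-receptors Lrp5 and Lrp6 they stabilize beta-catenin (Ctnnb1), which acts in the nucleus with TCF/LEF factors, whereas with Ror, Ryk and planar cell polarity proteins they act on cell shape, migration and axon growth without beta-catenin. In the developing midbrain, Wnt signaling is known for its part in patterning, in the growth of the progenitor layer and in the guidance of axons.

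The 7 libraries held 23588248, 40411968 and 26577011 gene counts in control 1, 2 and 3, and 28116582, 67792192, 39251318 and 87572085 in cKO 1, 2, 3 and 4. The members together received between 30977 counts, in control 1, and 137840 counts, in cKO 4. Levels are given as RPKM, reads per kilobase of exon after the libraries were scaled to a common size with TMM factors, which allows comparison between genes. Fold changes are log2 differences of cKO over control with their standard errors (SE), from edgeR's quasi-likelihood test fitted across all genes with Benjamini-Hochberg adjustment, and a gene was called at an adjusted p under 0.05. The SE of edgeR fits is approximate, computed as the absolute log2 fold change over the square root of the test's F statistic.

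Brn3b itself followed the labels in every library. Its level was 14.5, 14.8 and 14.3 RPKM in control 1 to 3 and 3.01, 3.02, 3.32 and 3.61 RPKM in cKO 1 to 4, a log2 fold change of -2.16 ± 0.13 (SE; edgeR adjusted p = 5.66e-04). All 4 cKO libraries, cKO 3 included, lay below all 3 controls. The source of the remaining counts was not tested.

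The tissue label was checked against 10 dorsal midbrain genes, all of them expressed, with Tfap2b the most abundant and a summed level of 212, 237 and 231 RPKM in control 1 to 3 and 219, 265, 206 and 290 RPKM in cKO 1 to 4. Of 8 hindbrain and cerebellar markers 6 were under 1 RPKM on average, with Hoxb2 at 0 counts in all 7 libraries, and the other two, Barhl1 and Cbln1, were expressed. Control 2 held the highest level of red blood cell genes, given with the other marker lists. En1, the gene whose promoter drives Cre, was at 1.33, 1.16 and 1.27 RPKM in the controls and at 1.06, 2.05, 4.69 and 2.97 RPKM in cKO 1 to 4, highest in cKO 3.

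The library cKO 3 stood apart from the other 3 cKO libraries, and results that rest on it are given below with and without it. On the first principal component of all expressed genes, which held 74.8% of the variance, cKO 3 scored -36.0, among the controls at -27.7, -60.5 and -34.9, whereas cKO 1, 2 and 4 scored 35.3, 64.2 and 59.7. The same division followed base composition: for 6494 genes with under 45% GC, the median log2 difference from the control mean was 0.25, 0.34 and 0.28 in cKO 1, 2 and 4 and -0.04 in cKO 3, and for 4281 genes with over 55% GC it was -0.29, -0.52 and -0.47 in cKO 1, 2 and 4 and -0.01 in cKO 3. Fold changes are therefore also given after removal of each library's trend on GC content and exon length.

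Of the 49 members, 45 passed the low-count filter. The other 4 were Wnt3a with 6 counts over all libraries, Wnt8a with 1, Wnt8b with 10, all in cKO 4, and Dkk4 with 60. A count of 0, as Wnt8a had in 6 libraries, allows up to 3 counts, which for a transcript of 3 kilobases is between 0.0118 RPKM in cKO 4 and 0.0415 RPKM in control 1. By mean level over the 7 libraries, 7 members were at 10 RPKM or more, 25 between 1 and 10 RPKM, and 17 under 1 RPKM.

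None of the 45 members was called with all 7 libraries (edgeR, adjusted p from 0.138 to 0.980), in a comparison in which 0.00458% of the genes tested were called, Brn3b alone. At an unadjusted p under 0.05, edgeR found 7 members higher in cKO, against 16.7% of all genes, and 4 lower, against 13.7%. DESeq2 called 4 of 42 members higher, Wnt5a, Fzd3, Fzd6 and Lrp6, beside 7.41% of all genes, and 0 members lower, beside 3.04% of all genes. The median log2 fold change of the 45 members was -0.08 and that of all genes tested 0.00. The share of members called higher by DESeq2 is read against the share of all genes in the same direction, and nothing particular to the members is drawn from it.

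Without cKO 3, 43 members were tested and edgeR called 13 higher in cKO, where the share over all genes was 23.7%, and 4 lower, where it was 23.1%. This fit leaves out the cKO library that lay among the controls on the first principal component, so its calls are conditional on that choice. By class, among the ligands 1 was higher and 3 lower, among the Frizzled receptors 7 were higher and 1 lower, and among the co-receptors and other receptors 3 were higher and 0 lower. The median log2 fold change was -0.50 for 13 ligands, 0.50 for 10 Frizzled receptors and 0.44 for 5 co-receptors and other receptors, beside 0.00 for all genes.

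With the GC and length trend removed as well, 9 members were called higher, beside 14.8% of all genes, and 2 lower, beside 19.2% of all genes. Of the 17 members called without cKO 3, 6 of the 13 higher and 1 of the 4 lower were called again: Fzd1, Fzd3, Fzd5, Fzd6, Fzd7 and Lrp6 higher and Wnt4 lower. Over all genes, 2652 of the 4997 higher and 2982 of the 4870 lower were called again. Another 4 were called without cKO 3 only after the removal: Wnt2b, Fzd10 and Ror2 higher and Lef1 lower. The median of the ligands moved to -0.17 and that of the Frizzled receptors to 0.47, with all genes at -0.04.

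In 8 members the 4 cKO libraries lay outside the control range with no overlap. These were Wnt5a, Wnt10b, Fzd6, Lrp5, Ror1 and Ror2 on the higher side, 6 of 45 beside 6.03% of all genes, and Wnt3 and Wnt9b on the lower side, 2 of 45 beside 8.01% of all genes. Leaving out a library can only keep or raise such a count. Without cKO 3 it was 15 members higher, beside 28.2% of all genes, and 8 lower, beside 28% of all genes. With cKO 3 included, 15 of these 23 members (65.2%) were no longer apart, as were 75.0% of the 12271 genes apart without it. On its own, cKO 3 lay within the control range in 19 of 45 members (42.2%) and in 61.8% of all genes, whereas cKO 1 did so in 9 members (20%, beside 23.1% of all genes), cKO 2 in 11 (24.4%, beside 20.1%) and cKO 4 in 13 (28.9%, beside 21.4%).

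Age was examined in the same way. With age as a covariate edgeR called 0 members (9 at an unadjusted p under 0.05), beside 0.00458% of all genes. With the P4 mice only, 2 of each group, it also called 0 members (0 at an unadjusted p under 0.05), beside 0 of 20702 genes, so not Brn3b either. The cKO libraries of that fit are cKO 1 and cKO 3. For the 17 members called without cKO 3, its log2 fold changes were -0.27 for Wnt3 and Wnt4, -0.12 for Wnt7b, 0.48 for Wnt5a, 0.15 for Fzd1, 0.48 for Fzd3, 0.23 for Fzd4 and Fzd5, 0.63 for Fzd6, 0.35 for Fzd7, 0.11 for Fzd8, -0.22 for Fzd9, 0.38 for Lrp5, 0.39 for Lrp6, 0.65 for Ror1, 0.48 for Sfrp1 and 0.18 for Ctnnb1, nearer to 0 than with all libraries in each but Sfrp1. Against the P2 cKO mice alone, which are cKO 2 and cKO 4, it called 18 members and 46.9% of all genes, a comparison that leaves out cKO 3 as well as cKO 1. Across the 17 alternative settings the adjusted p of the 24 members followed through them reached its highest value with the P4 mice only, 0.989 or 0.991, except for Wnt10b, which was not tested there.

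**Figure D1:**
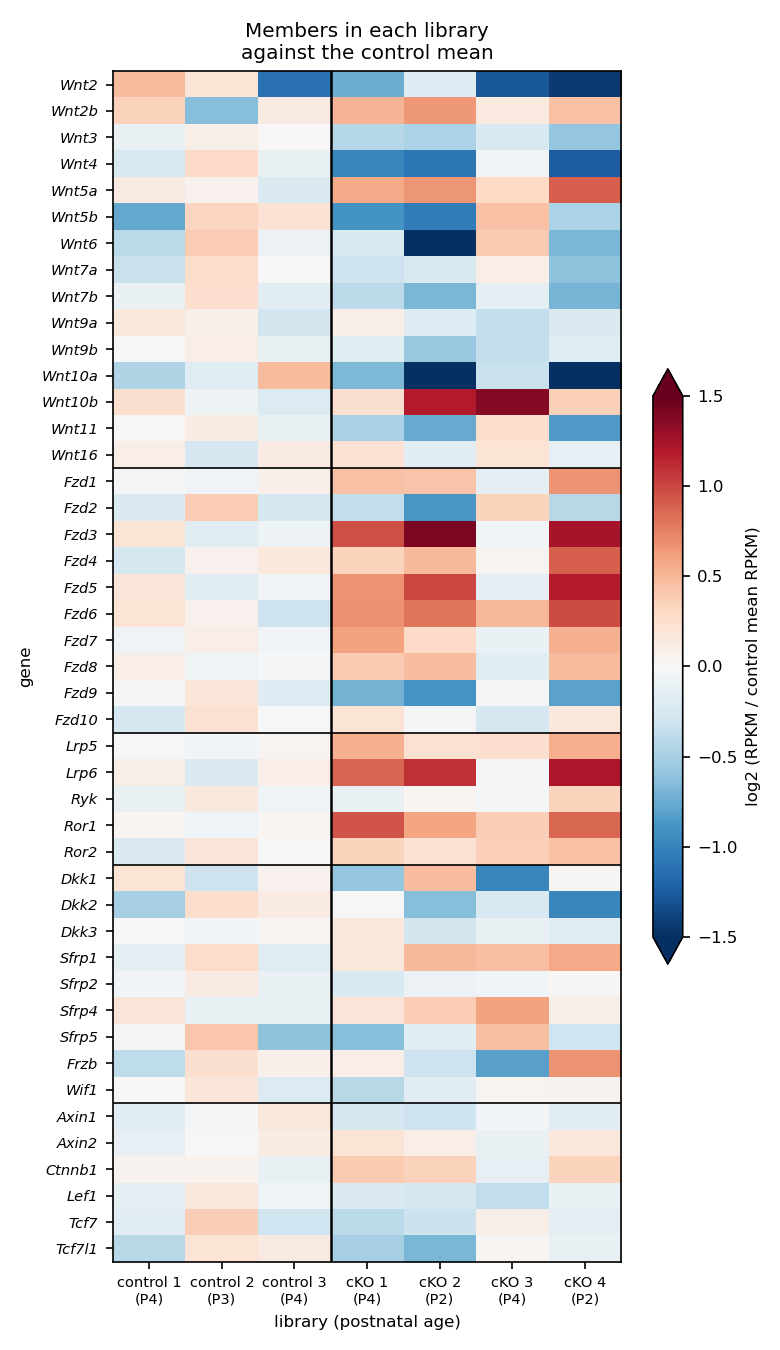
Heat map of the 45 members tested (rows, in class order: ligands, Frizzled receptors, co-receptors and other receptors, secreted modulators, effectors) in 7 libraries (columns, with postnatal age), colored by the log2 ratio of RPKM to the control mean, with the scale closed at 1.5 in either direction. Most Frizzled receptors are red and most ligands blue in cKO 1, 2 and 4, and cKO 3 is nearer to the 3 controls in many rows.

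Of the 18 ligands followed, those with the highest levels were Wnt4, Wnt3, Wnt7a and Wnt7b, at means over all libraries of 8.32, 6.90, 5.71 and 5.34 RPKM, followed by Wnt5a at 2.90 RPKM. The ranges of neighbors in this order overlapped, so their order is not firm. Summed over these 18 ligands, the level was 36.9, 46.7 and 38.8 RPKM in control 1 to 3 and 31.4, 29.2, 40.0 and 28.1 RPKM in cKO 1 to 4. The sum was thus below every control in cKO 1, 2 and 4 and within the control range in cKO 3. In tissue of mixed cells, fewer cells of a type and less RNA per cell cannot be told apart, here and in all results below.

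Wnt4, a ligand that acts with or without beta-catenin depending on the tissue (chr4:137277489-137299726 in GRCm38, plus strand), was at 9.23, 13.3 and 10.1 RPKM in control 1 to 3 and at 5.50, 5.11, 10.5 and 4.57 RPKM in cKO 1 to 4. In cKO 1, 2 and 4 it was below every control, and cKO 3 was inside the control range. The log2 fold change was -0.76 ± 0.28 with all libraries (SE; edgeR adjusted p = 0.138) and -1.11 ± 0.15 without cKO 3 (edgeR adjusted p = 1.50e-04). After removal of the GC and length trend it was -0.85 ± 0.13 without cKO 3 (edgeR adjusted p = 5.01e-04), and over 17 alternative settings the adjusted p ranged from 2.13e-10 with DESeq2 without cKO 3 to 0.989 with the P4 mice only, by edgeR.

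Wnt3 (chr11:103774150-103817957, plus strand), an activator of beta-catenin signaling, had no overlap between groups. It was at 7.54, 8.61 and 8.06 RPKM in the controls and at 6.01, 5.79, 6.90 and 5.41 RPKM in cKO 1 to 4, with cKO 3 the highest of the 4 but still under every control. Its log2 fold change was -0.42 ± 0.14 (SE; edgeR adjusted p = 0.138), and without cKO 3 it was -0.50 ± 0.13 (edgeR adjusted p = 0.00665). Removal of the GC and length trend left -0.31 ± 0.12 without cKO 3, which was not called (edgeR adjusted p = 0.0600). Its neighbor on chromosome 11, Wnt9b (chr11:103727364-103749821, minus strand), was the only other ligand below every control in all 4 cKO libraries, at 1.53, 1.65 and 1.42 RPKM in control 1 to 3 and 1.36, 1.03, 1.199 and 1.35 RPKM in cKO 1 to 4. Its difference did not pass the test in any of the 17 alternatives (lowest adjusted p 0.124, limma-voom), and it was -0.32 ± 0.18 on the log2 scale with all libraries (SE; edgeR adjusted p = 0.254). Without cKO 3 it was -0.31 ± 0.19, and with the trend removed as well -0.05 ± 0.18 (edgeR adjusted p = 0.205 and 0.849).

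Wnt7b, a ligand of the forebrain and midbrain neuroepithelium and of vessel ingrowth, was at 5.86, 7.52 and 5.64 RPKM in the controls and at 4.83, 3.93, 5.73 and 3.90 RPKM in cKO 1 to 4. Here cKO 3 lay between the controls and the other 3 cKO libraries lay below them. Across all libraries the log2 fold change was -0.47 ± 0.18 (SE; edgeR adjusted p = 0.141), -0.60 ± 0.15 without cKO 3 (edgeR adjusted p = 0.00608) and -0.25 ± 0.12 after removal of the GC and length trend (edgeR adjusted p = 0.120). Wnt7a, its closest relative, was at 4.97, 7.50 and 6.31 RPKM in the controls and at 5.04, 5.36, 6.69 and 4.08 RPKM in the cKO, so the groups overlapped.

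Wnt5a, the prototype of the ligands that act without beta-catenin through Ror receptors, was the only ligand called higher without cKO 3 before the correction. It stood at 2.42, 2.32 and 1.90 RPKM in control 1 to 3 and at 3.28, 3.51, 2.73 and 4.13 RPKM in cKO 1 to 4. All 4 cKO libraries were above all 3 controls, with cKO 3 the lowest of the cKO. With all libraries its log2 fold change was 0.63 ± 0.18, past the threshold with DESeq2 (adjusted p = 0.0358) and not with edgeR (adjusted p = 0.138), and 0.72 ± 0.14 without cKO 3 (edgeR adjusted p = 0.00167). Removal of the GC and length trend took it to 0.25 ± 0.13 without cKO 3 (edgeR adjusted p = 0.166), the smallest value of 17 alternatives.

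Wnt2b was called higher only once the trend was removed and cKO 3 left out. Its levels were 1.53, 0.773 and 1.32 RPKM in the controls and 1.72, 1.90, 1.34 and 1.64 RPKM in cKO 1 to 4, with control 2 the lowest and cKO 3 inside the control range. Its fold change on the log2 scale was 0.46 ± 0.26 with all libraries, 0.54 ± 0.24 without cKO 3 and 0.82 ± 0.25 with the trend removed (SE; edgeR adjusted p = 0.241, 0.0812 and 0.0250). Without control 2 it was 0.21, and with the P4 mice only 0.10. The remaining ligands were at low levels and none was called in these 3 edgeR fits: Wnt6, Wnt9a and Wnt5b had means of 1.38, 0.899 and 0.673 RPKM, Wnt11 0.323, Wnt16 0.235 and Wnt2 0.159 RPKM, and Wnt10a and Wnt10b 0.0963 and 0.0913 RPKM. Over the alternatives the lowest adjusted p was 0.00182 for Wnt3, 0.00107 for Wnt7b and 3.22e-05 for Wnt5a, each by DESeq2 without cKO 3. Wnt10a and Wnt10b did not pass the filter once cKO 3 was left out. The lack of overlap in Wnt10b rested on 6, 8 and 5 counts in the controls and 7, 31, 22 and 23 counts in cKO 1 to 4, and its lowest cKO value and highest control value were 0.0733 and 0.0732 RPKM.

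**Figure D2:**
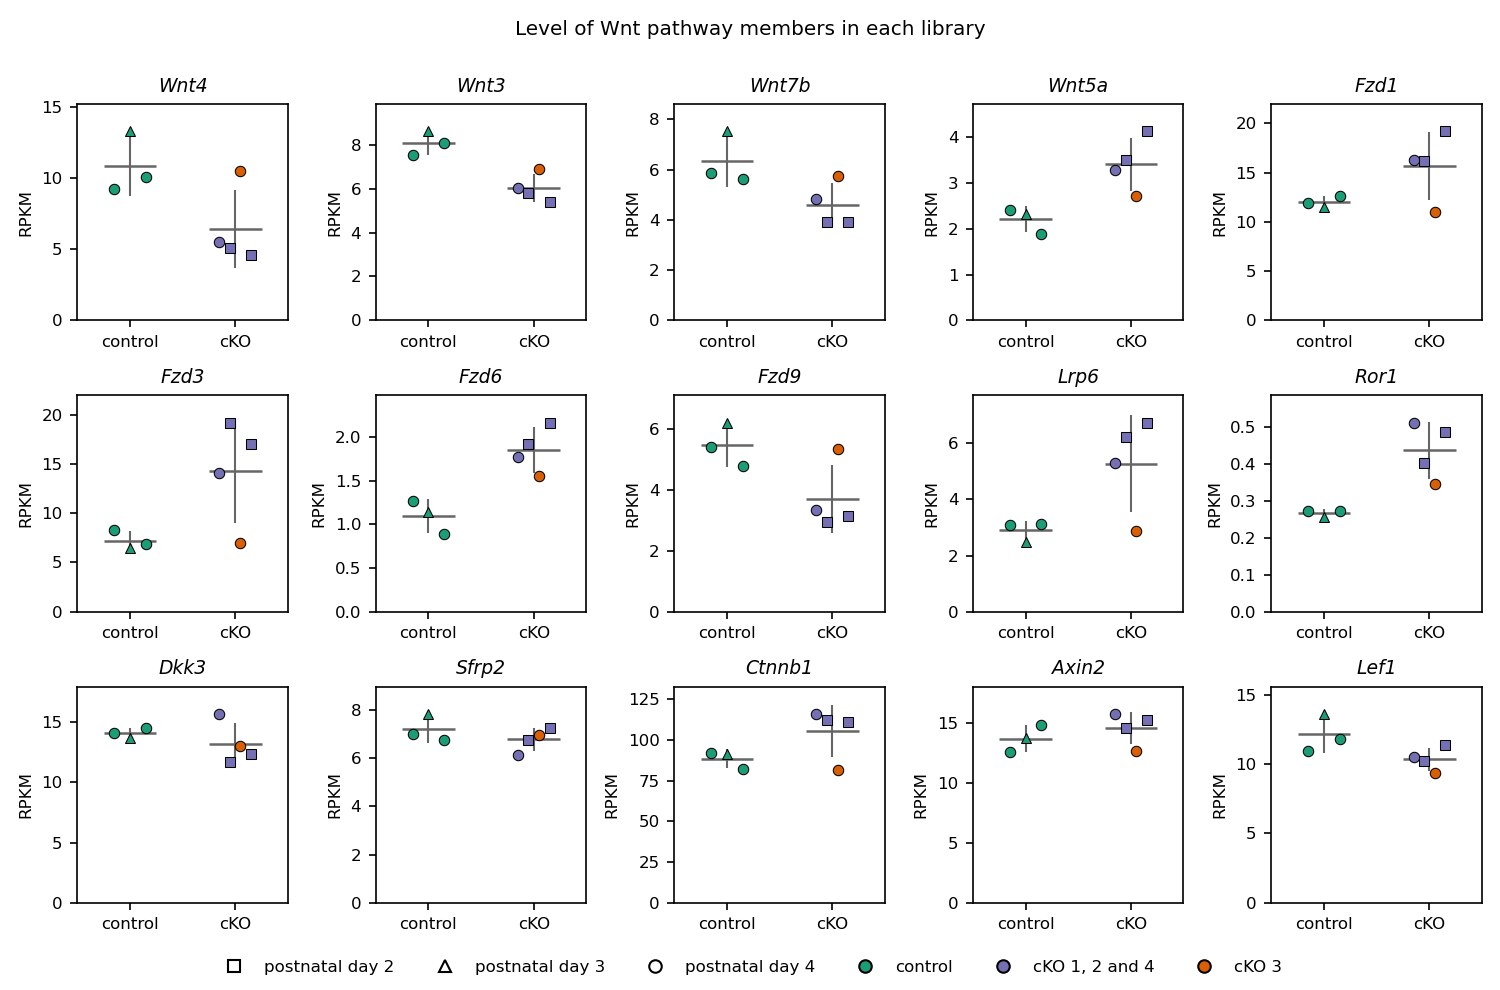
Level (RPKM, linear axis from 0) of 15 members in each library of the control and cKO groups, with marker shape for postnatal age, cKO 3 in orange, and horizontal and vertical lines for the group mean and 1 SD. In Wnt4, Fzd3 and Lrp6 cKO 3 lies among or beside the controls, whereas in Wnt5a, Fzd6 and Ror1 all 4 cKO libraries lie above every control.

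The Frizzled receptors, the seven-pass membrane proteins that bind Wnt ligands, had a positive log2 fold change with all libraries in 8 of 10 genes and a negative one in 2, Fzd2 and Fzd9, whereas 11 of 15 ligands had a negative one. None of these was called with all libraries by edgeR (3 Frizzled receptors and 4 ligands at an unadjusted p under 0.05, and 2 and 1 called by DESeq2), and the difference between the classes was not tested. Fzd1 and Fzd3 had the highest levels, at means of 14.1 and 11.3 RPKM, and were apart from Fzd10, Fzd9 and Fzd7 at 4.80, 4.45 and 4.05 RPKM. The sum over the 10 receptors was 39.0, 41.0 and 38.3 RPKM in control 1 to 3 and 51.7, 54.1, 38.2 and 58.0 RPKM in cKO 1 to 4. It was above every control in cKO 1, 2 and 4, and in cKO 3 just under the lowest control.

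Fzd3 (chr14:65192449-65262463, minus strand), a receptor known for its part in axon growth and guidance, had the largest log2 fold change of the 10 with all libraries and without cKO 3, but not with the trend removed, where Fzd1, Fzd5, Fzd6, Fzd7 and Fzd10 were larger. Its level was 8.29, 6.49 and 6.87 RPKM in the controls and 14.1, 19.2, 6.995 and 17.0 RPKM in cKO 1 to 4. In cKO 3 it was inside the control range. The log2 fold change was 0.99 ± 0.30 with all libraries (SE; edgeR adjusted p = 0.138), 1.00 ± 0.30 with DESeq2 (adjusted p = 0.0294) and 1.22 ± 0.14 without cKO 3 (edgeR adjusted p = 7.85e-05). Removal of the GC and length trend brought it down to 0.45 ± 0.10 without cKO 3, still called (edgeR adjusted p = 0.00438). Its exons span 12804 bases at 40.3% GC, the longest and the lowest in GC of the 10 Frizzled genes.

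Fzd6 (chr15:39006034-39038188, plus strand), known for its part in planar cell polarity, was the only Frizzled receptor with no overlap between groups over all 7 libraries. It was at 1.27, 1.146 and 0.887 RPKM in the controls and at 1.77, 1.92, 1.55 and 2.17 RPKM in cKO 1 to 4. Its log2 fold change was 0.75 ± 0.20 with all libraries (SE; edgeR adjusted p = 0.138), past the threshold with DESeq2 (adjusted p = 0.0239), and 0.83 ± 0.19 without cKO 3 (edgeR adjusted p = 0.00364). It was 0.63 ± 0.18 with the trend removed (edgeR adjusted p = 0.0195), and over the 17 alternatives it stayed between 0.59 and 0.90.

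Fzd1 (chr5:4753839-4758035, minus strand), the receptor with the highest level, gained from the correction. It was at 11.9, 11.6 and 12.7 RPKM in the controls and at 16.3, 16.2, 10.96 and 19.2 RPKM in cKO 1 to 4, with cKO 3 below every control and the other 3 above them. Between the groups the log2 fold change was 0.38 ± 0.18 with all libraries (SE; edgeR adjusted p = 0.186), 0.52 ± 0.11 without cKO 3 (edgeR adjusted p = 0.00254) and 0.75 ± 0.11 after removal of the trend (edgeR adjusted p = 4.22e-04). Its single exon holds 55.7% GC.

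Fzd7 is close to Fzd1 in sequence, and here too cKO 3 was below every control and the other 3 above them. It was at 3.35, 3.73 and 3.38 RPKM in the controls and at 5.31, 4.24, 3.26 and 5.06 RPKM in cKO 1 to 4. Without cKO 3 the log2 fold change was 0.48 ± 0.14 (SE; edgeR adjusted p = 0.0136), and with the trend removed 0.58 ± 0.13 (edgeR adjusted p = 0.00386), whereas with all libraries it was 0.36 ± 0.19 (edgeR adjusted p = 0.216). Fzd5, a receptor of the eye field and the vasculature, was low, at 0.180, 0.141 and 0.153 RPKM in the controls and 0.252, 0.316, 0.142 and 0.357 RPKM in cKO 1 to 4. Its log2 fold change was 0.77 ± 0.36 with all libraries (edgeR adjusted p = 0.172), 0.98 ± 0.30 without cKO 3 (edgeR adjusted p = 0.0165) and 0.81 ± 0.29 with the trend removed (edgeR adjusted p = 0.0484).

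Fzd4, the receptor for Norrin and Wnt7 ligands on brain endothelium, and Fzd8 were called higher without cKO 3 but not once the trend was removed. Fzd4 was at 0.846, 1.06 and 1.14 RPKM in the controls and at 1.28, 1.42, 1.04 and 1.88 RPKM in cKO 1 to 4, a log2 fold change of 0.47 ± 0.23 with all libraries (SE; edgeR adjusted p = 0.190), 0.59 ± 0.20 without cKO 3 (0.0259) and 0.21 ± 0.19 with the trend removed (0.428). Fzd8 was at 1.12, 0.995 and 1.02 RPKM in the controls and at 1.37, 1.43, 0.936 and 1.45 RPKM in the cKO, with log2 fold changes of 0.31 ± 0.20, 0.44 ± 0.17 and 0.30 ± 0.16 in the same order (edgeR adjusted p = 0.301, 0.0452 and 0.179). In both genes cKO 3 was not above the controls.

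Fzd9, a receptor encoded by a single short exon of 2293 bases at 62.2% GC, was the only Frizzled receptor called lower by edgeR without cKO 3. It was at 5.39, 6.20 and 4.78 RPKM in the controls and at 3.34, 2.94, 5.33 and 3.14 RPKM in cKO 1 to 4, with cKO 3 inside the control range. For Fzd9 the log2 fold change was -0.57 ± 0.23 with all libraries (SE; edgeR adjusted p = 0.147) and -0.80 ± 0.16 without cKO 3 (edgeR adjusted p = 0.00173). After removal of the GC and length trend it was -0.11 ± 0.16 without cKO 3 (edgeR adjusted p = 0.626), so the call ended there.

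Fzd10 and Fzd2 were not called by edgeR with all libraries or without cKO 3. Fzd10, which is expressed in the dorsal neural tube, was at 3.97, 5.56 and 4.73 RPKM in the controls and at 5.47, 4.65, 3.96 and 5.30 RPKM in cKO 1 to 4. Its log2 fold change was 0.03 ± 0.18 with all libraries (SE; edgeR adjusted p = 0.932), 0.11 ± 0.16 without cKO 3 (edgeR adjusted p = 0.608) and 0.49 ± 0.14 with the trend removed (edgeR adjusted p = 0.0162). Over the alternatives the lowest adjusted p was 8.68e-15 for Fzd3, 1.99e-04 for Fzd6, 2.30e-04 for Fzd1, 4.26e-05 for Fzd9 and 0.0122 for Fzd4 (DESeq2 without cKO 3), 0.0127 for Fzd5 (edgeR, P2 cKO mice), 0.0351 for Fzd8 (limma-voom), and for Fzd7 and Fzd10 the value with the trend removed. Fzd2 was at 2.73, 4.14 and 2.64 RPKM in the controls and at 2.46, 1.72, 3.98 and 2.38 RPKM in cKO 1 to 4. In cKO 1, 2 and 4 it was below every control, and in cKO 3 inside their range. Its log2 fold change was -0.27 ± 0.29 with all libraries (SE; edgeR adjusted p = 0.529), -0.55 ± 0.21 without cKO 3 (edgeR adjusted p = 0.0507, and 0.0361 by DESeq2) and -0.20 ± 0.19 with the trend removed (edgeR adjusted p = 0.440).

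The co-receptors and other receptors included Ryk and Lrp6 at the highest levels, with means of 9.54 and 4.26 RPKM, then Ror2, Lrp5 and Ror1 at 1.27, 1.17 and 0.365 RPKM. All 5 had a positive log2 fold change with all libraries, where 50.2% of all genes did. With the trend removed and cKO 3 left out, 4 of the 5 did, all but Ryk, where 47.2% of all genes did. Lrp6 (chr6:134446476-134566965, minus strand), a co-receptor of Frizzled in beta-catenin signaling, was at 3.09, 2.496 and 3.11 RPKM in the controls and at 5.30, 6.21, 2.87 and 6.75 RPKM in cKO 1 to 4. Again cKO 3 was inside the control range. For Lrp6 the log2 fold change was 0.87 ± 0.26 with all libraries (SE; edgeR adjusted p = 0.138), past the threshold with DESeq2 (adjusted p = 0.0356), and 1.07 ± 0.13 without cKO 3 (edgeR adjusted p = 9.84e-05). It was 0.36 ± 0.10 once the trend was removed (edgeR adjusted p = 0.0145).

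Lrp5, the second co-receptor, and the Wnt5a receptors Ror1 and Ror2 were each above every control in all 4 cKO libraries. Lrp5 was at 0.984, 0.962 and 1.02 RPKM in the controls and at 1.43, 1.16, 1.18 and 1.44 RPKM in cKO 1 to 4. Ror1 was at 0.274, 0.256 and 0.273 RPKM in the controls and at 0.513, 0.404, 0.346 and 0.488 RPKM in the cKO, and Ror2 at 0.949, 1.26 and 1.10 RPKM and at 1.39, 1.28, 1.42 and 1.496 RPKM. For Ror2 the gap was small, and cKO 3 was not the lowest of its group. With all libraries the log2 fold changes were 0.40 ± 0.16 for Lrp5, 0.71 ± 0.25 for Ror1 and 0.34 ± 0.19 for Ror2 (SE; edgeR adjusted p = 0.145, 0.138 and 0.235). Without cKO 3 they were 0.44 ± 0.15, 0.80 ± 0.26 and 0.33 ± 0.20 (edgeR adjusted p = 0.0333, 0.0223 and 0.191), and with the trend removed 0.22 ± 0.15, 0.51 ± 0.26 and 0.73 ± 0.19 (edgeR adjusted p = 0.279, 0.151 and 0.0112). The lowest adjusted p over the alternatives was 3.20e-12 for Lrp6 and 0.0229 for Lrp5 (DESeq2 without cKO 3) and 0.0184 for Ror1 (limma-voom). The correction thus ended the calls of Lrp5 and Ror1 and made that of Ror2.

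Ryk, a receptor with an inactive kinase domain that guides axons away from Wnt5a, had no such difference. It was at 8.62, 10.3 and 8.90 RPKM in the controls and at 8.57, 9.46, 9.18 and 11.7 RPKM in cKO 1 to 4, and the log2 fold change of 0.07 ± 0.15 did not pass the test (SE; edgeR adjusted p = 0.765).

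The secreted modulators, which bind ligands or co-receptors outside the cell, had 3 positive and 6 negative log2 fold changes with all libraries. With the trend removed and cKO 3 left out, 6 were positive and 3 negative. Their summed level was 33.1, 36.7 and 33.5 RPKM in control 1 to 3 and 34.4, 32.8, 35.0 and 34.7 RPKM in cKO 1 to 4, so the groups overlapped and cKO 3 was not set apart. Dkk3, an atypical member of the Dickkopf family, was the highest, at 14.1, 13.7 and 14.5 RPKM in the controls and 15.7, 11.7, 13.0 and 12.4 RPKM in the cKO. Sfrp2, a Frizzled-related protein that binds Wnt ligands, followed at 6.99, 7.84 and 6.73 RPKM in the controls and 6.14, 6.76, 6.97 and 7.27 RPKM in the cKO, with a coefficient of variation over the 7 libraries of 7.52%, the lowest of the 49 members.

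Sfrp1, a second Frizzled-related protein, was the only modulator called by edgeR without cKO 3. It was at 4.89, 6.47 and 4.72 RPKM in the controls and at 6.05, 7.52, 7.34 and 7.97 RPKM in cKO 1 to 4, so that cKO 1 overlapped with control 2 and cKO 3 lay with the other cKO libraries. For Sfrp1 the log2 fold change was 0.43 ± 0.17 with all libraries (SE; edgeR adjusted p = 0.140), 0.42 ± 0.16 without cKO 3 (edgeR adjusted p = 0.0423) and 0.38 ± 0.15 with the trend removed (edgeR adjusted p = 0.0659). Over the alternatives it lay between 0.33 and 0.59, with a lowest adjusted p of 0.00779 (limma-voom).

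The other modulators were not called in these fits. Wif1 ranged from 3.25 to 4.26 RPKM in the controls and from 2.82 to 3.89 RPKM in the cKO, and Dkk2 from 1.28 to 2.18 and from 0.917 to 1.80 RPKM. Sfrp4, Sfrp5, Dkk1 and Frzb had means of 0.676, 0.644, 0.432 and 0.269 RPKM, and Dkk4, which was not tested, had 0, 8 and 20 counts in the controls and 6, 6, 4 and 16 counts in the cKO.

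Among the effectors, Ctnnb1, which encodes beta-catenin, had the highest level of all members, at 92.1, 91.5 and 81.9 RPKM in the controls and 116, 113, 81.5 and 111 RPKM in cKO 1 to 4. It was above every control in 3 cKO libraries and just below the lowest control in cKO 3. The log2 fold change was 0.25 ± 0.15 with all libraries (SE; edgeR adjusted p = 0.256), 0.35 ± 0.10 without cKO 3 (edgeR adjusted p = 0.0105) and 0.22 ± 0.09 with the trend removed, which was not called (edgeR adjusted p = 0.0858). Its lowest adjusted p over the alternatives was 0.00372, by DESeq2 without cKO 3.

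Axin2, a feedback target of beta-catenin signaling often used as its readout, overlapped between groups. It was at 12.5, 13.7 and 14.8 RPKM in the controls and at 15.8, 14.6, 12.7 and 15.2 RPKM in cKO 1 to 4, and the log2 fold change of 0.09 ± 0.13 did not pass the test (SE; edgeR adjusted p = 0.648), nor did it in any of the 17 alternatives (adjusted p from 0.126 to 0.991, both by edgeR). Axin1, the scaffold of the destruction complex, was at 13.0, 14.5 and 16.4 RPKM in the controls and at 12.3, 11.8, 14.3 and 13.1 RPKM in the cKO, again with overlap.

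Lef1, a TCF/LEF factor that binds beta-catenin on DNA, was at 10.98, 13.6 and 11.8 RPKM in the controls and at 10.5, 10.2, 9.37 and 11.4 RPKM in cKO 1 to 4. Only cKO 4 overlapped with the controls, and cKO 3 was the lowest of the 7. For Lef1 the log2 fold change was -0.23 ± 0.13 with all libraries (SE; edgeR adjusted p = 0.244), -0.19 ± 0.11 without cKO 3 (edgeR adjusted p = 0.191) and -0.72 ± 0.12 with the trend removed (edgeR adjusted p = 8.40e-04), the only 1 of the 17 alternatives to call it. Tcf7 and Tcf7l1, its relatives, ranged from 1.84 to 2.90 and from 2.56 to 3.92 RPKM in the controls and from 1.71 to 2.39 and from 2.12 to 3.49 RPKM in the cKO, and were not called in these fits.

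**Figure D3:**
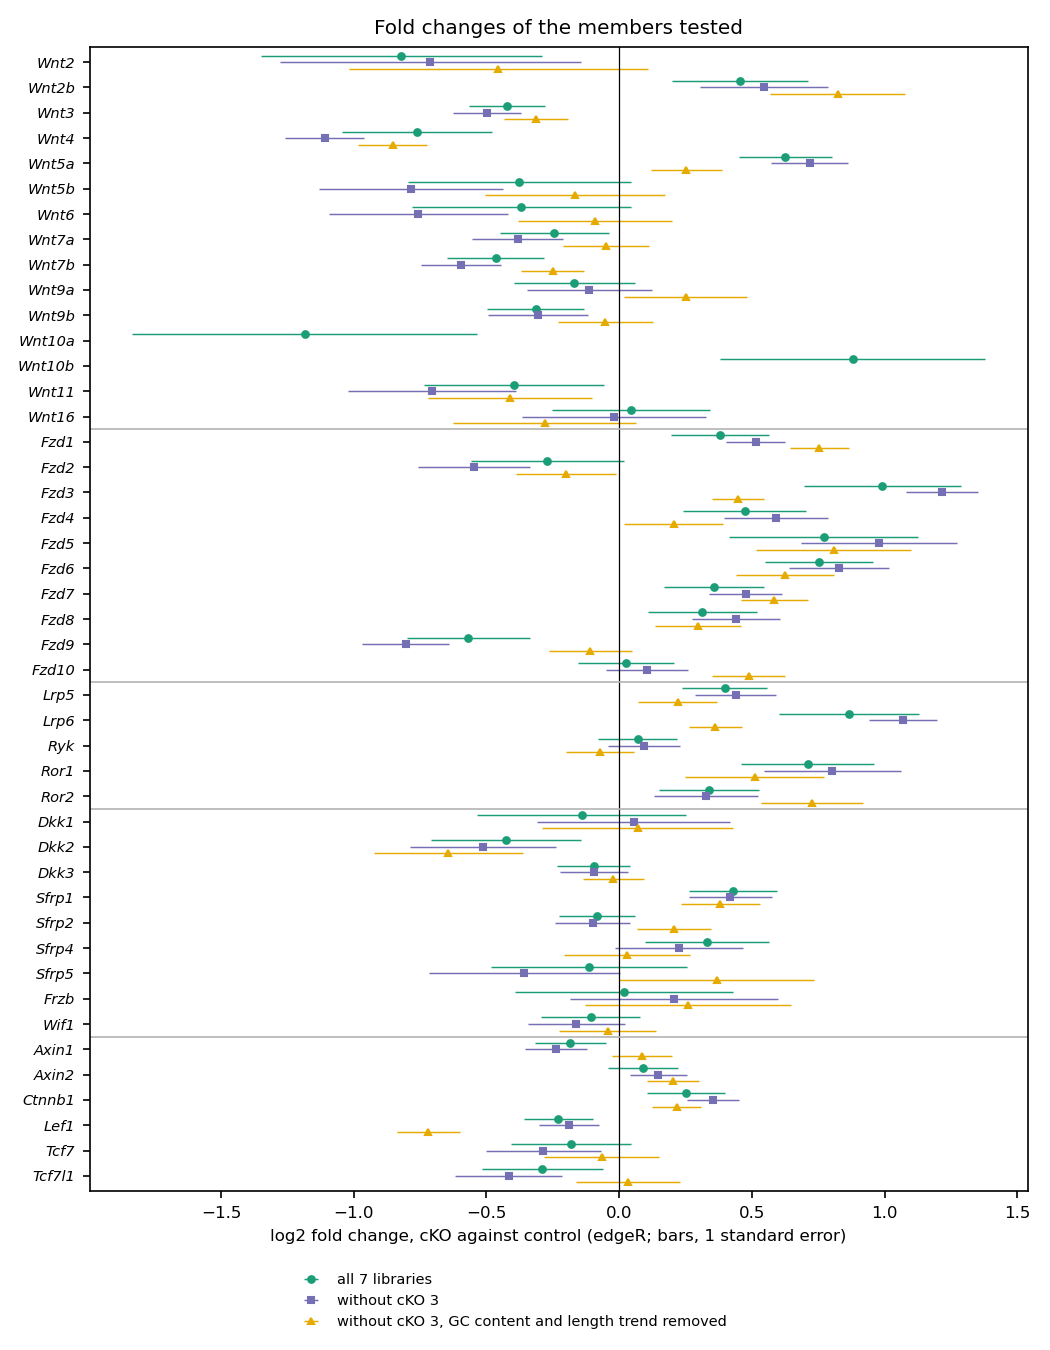
Log2 fold change of cKO over control (horizontal axis, edgeR; bars, 1 SE) for the 45 members tested, in the class order of the heat map, with all 7 libraries (circles), without cKO 3 (squares) and without cKO 3 after removal of the GC and length trend (triangles). Fzd3, Lrp6 and Fzd9 move toward 0 with the correction, Wnt4 stays below -0.7 in all 3 fits, and Fzd1 and Lef1 move away from 0.

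The members varied in exon length and base composition, and their fold changes varied with both, as did those of all genes. Across the 43 members tested without cKO 3, Spearman's correlation of the log2 fold change was -0.53 with GC content and 0.68 with exon length, and across all 21082 genes with both properties it was -0.34 and 0.40. The points share the same 6 libraries and genes are not independent replicates, so these are descriptions. The ligands tested had a median GC content of 56.4% and a median exon length of 3401 bases, the Frizzled receptors 53.3% and 4675 bases, and the co-receptors and other receptors 47.8% and 5762 bases, beside 48.8% and 3407 bases for all genes tested. With the trend removed the correlations across members were -0.05 with GC content and 0.33 with length. The part of base composition and length in the differences between classes was not tested beyond this correction.

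Exons of 10 members overlap exons of a gene on the opposite strand in GENCODE, among them Wnt5a, Wnt7b, Fzd5, Fzd6, Axin2, Lef1 and Ctnnb1. The sources used here do not give the strand setting of the counting, so reads of a member and of its antisense partner cannot be told apart in these genes.

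The other genes of the pathway, 63 in 4 lists, of which 62 were tested, were also not called with all libraries by edgeR, and at an unadjusted p under 0.05 it found 20 higher and 4 lower, beside 16.7% and 13.7% of all genes. DESeq2 called 5 higher, Apc, Tnks, Celsr1, Prickle2 and Daam2, and 0 lower, beside 7.41% and 3.04% of all genes. Without cKO 3, edgeR called 23 higher and 12 lower (23.7% and 23.1% of all genes), and with the GC and length trend removed as well 14 higher and 3 lower (14.8% and 19.2% of all genes). Their median log2 fold change was 0.16 with all libraries, 0.20 without cKO 3 and 0.08 with the trend removed. None of the pathway genes given a fold change in the next 4 paragraphs was called with all libraries by edgeR (adjusted p from 0.138 to 0.380).

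Of 19 genes of ligand secretion and extracellular control, 5 were higher and 3 lower without cKO 3, beside 23.7% and 23.1% of all genes. With the trend removed as well, 3 were higher and 1 lower, beside 14.8% and 19.2% of all genes. The median log2 fold change was 0.12 with all libraries, 0.14 without cKO 3 and -0.09 with the trend removed. Draxin, Porcn, Lgr4 and Apcdd1 had the highest levels of those that met the naming rule. Porcn, the acyltransferase that adds the lipid to Wnt ligands, was at 10.3, 14.8 and 14.1 RPKM in the controls and at 9.49, 8.62, 12.6 and 9.84 RPKM in cKO 1 to 4, a log2 fold change of -0.37 ± 0.18 with all libraries, -0.49 ± 0.14 without cKO 3 and -0.16 ± 0.13 with the trend removed (SE; edgeR adjusted p = 0.193, 0.0141 and 0.387). Draxin and Apcdd1, both inhibitors of Wnt signaling, and Lgr4, a receptor of R-spondins, had 0.26 ± 0.20, 0.44 ± 0.16 and 0.34 ± 0.19 with all libraries, and 0.40 ± 0.13, 0.53 ± 0.13 and 0.48 ± 0.12 without cKO 3 (edgeR adjusted p = 0.0212, 0.00471 and 0.00665). With the trend removed Draxin was at 0.47 ± 0.13 and was called (edgeR adjusted p = 0.0140), Lgr4 fell short at 0.15 ± 0.11 (0.311), and Apcdd1 turned to -0.11 ± 0.11 (0.457), so that the calls of Porcn, Lgr4 and Apcdd1 ended.

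Of 19 genes of cytoplasmic signaling, 8 were higher and 6 lower without cKO 3, beside 23.7% and 23.1% of all genes. With the trend removed as well, 4 were higher and 0 lower, beside 14.8% and 19.2% of all genes. The median log2 fold change was 0.18 with all libraries, 0.25 without cKO 3 and -0.004 with the trend removed. Apc, the scaffold that marks beta-catenin for destruction, was at 26.1, 19.8 and 24.8 RPKM in the controls and at 49.97, 70.0, 23.6 and 58.8 RPKM in cKO 1 to 4, a log2 fold change of 1.10 ± 0.31 with all libraries, 1.34 ± 0.14 without cKO 3 and 0.55 ± 0.10 with the trend removed (SE; edgeR adjusted p = 0.138, 7.41e-05 and 0.00136). The paired kinases Gsk3b and Gsk3a were at 0.59 ± 0.21 and -0.40 ± 0.16 with all libraries and had opposite signs without cKO 3, at 0.75 ± 0.11 and -0.56 ± 0.11 (edgeR adjusted p = 2.59e-04 and 0.00117), and neither was called with the trend removed, at 0.17 ± 0.09 and 0.00 ± 0.09 (edgeR adjusted p = 0.181 and 0.986). Csnk1e, a kinase of Dishevelled, was at -0.27 ± 0.16 with all libraries, -0.36 ± 0.13 without cKO 3 and -0.29 ± 0.12 with the trend removed, where it was not called (edgeR adjusted p = 0.252, 0.0410 and 0.0779).

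Of the 12 nuclear partners and common target genes tested, 2 were higher and 3 lower without cKO 3, beside 23.7% and 23.1% of all genes. With the trend removed as well, 1 was higher and 2 lower, beside 14.8% and 19.2% of all genes. The median log2 fold change was 0.09 with all libraries, 0.11 without cKO 3 and 0.08 with the trend removed. Sp5, a target of beta-catenin signaling, was at 16.3, 26.4 and 19.7 RPKM in the controls and at 13.6, 9.76, 17.6 and 12.2 RPKM in cKO 1 to 4, a log2 fold change of -0.65 ± 0.22 with all libraries and -0.82 ± 0.18 without cKO 3 (SE; for the second, edgeR adjusted p = 0.00251), and -0.11 ± 0.13 once the trend was removed (edgeR adjusted p = 0.552). The co-activators Bcl9 and Pygo2 and the co-repressor Tle4 were at 0.26 ± 0.14, -0.26 ± 0.13 and 0.47 ± 0.19 with all libraries, and at 0.33 ± 0.11, -0.32 ± 0.11 and 0.60 ± 0.12 without cKO 3 (edgeR adjusted p = 0.0208, 0.0371 and 0.00158). With the trend removed Tle4 was at 0.32 ± 0.10 and was called, Bcl9 at 0.22 ± 0.10 was not, and Pygo2 turned to 0.10 ± 0.10 (edgeR adjusted p = 0.0300, 0.104 and 0.431).

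Of the 12 genes of planar cell polarity, the branch that Wnt5a, Ror2, Fzd3 and Fzd6 are known to act in, 8 were higher and 0 lower without cKO 3 by edgeR, beside 23.7% and 23.1% of all genes, and 6 were higher with the trend removed, beside 14.8%. The median log2 fold change was 0.43 with all libraries, 0.53 without cKO 3 and 0.34 with the trend removed. Over all 7 libraries 4 of the 12 had no overlap, Celsr1, Vangl2, Prickle2 and Daam2, all on the higher side, beside 6.03% of all genes. Celsr1, an atypical cadherin, was at 1.23, 1.06 and 1.06 RPKM in the controls and 2.18, 2.64, 1.26 and 3.28 RPKM in cKO 1 to 4, with cKO 3 close to control 1. Daam1, Vangl2, Celsr3 and Celsr2, the 4 of highest level among those that met the naming rule, had 0.55 ± 0.21, 0.32 ± 0.14, 0.47 ± 0.16 and 0.38 ± 0.15 with all libraries, and 0.71 ± 0.12, 0.38 ± 0.11, 0.58 ± 0.11 and 0.49 ± 0.10 without cKO 3 (SE; edgeR adjusted p = 5.41e-04, 0.0137, 0.001002 and 0.00151). With the trend removed Celsr3 and Celsr2 were called at 0.43 ± 0.11 and 0.38 ± 0.09, and Daam1 and Vangl2 were not, at 0.22 ± 0.09 and 0.23 ± 0.10 (edgeR adjusted p = 0.00797, 0.00481, 0.0940 and 0.0866).

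Markers of cell types that express Wnt pathway genes were followed in the same libraries, and their part in the results was not tested. The counts of marker genes below stand beside 23.7% of all genes called higher and 23.1% called lower by edgeR without cKO 3. Of 7 genes of radial glia and astrocytes, 3 were higher and 1 lower without cKO 3, and their sum, mostly Fabp7, was 1343, 1311 and 1128 RPKM in control 1 to 3 and 966, 735, 1145 and 585 RPKM in cKO 1 to 4. Of 9 genes of endothelium and pericytes, 4 were higher and 1 lower, with a sum led by Cldn5 of 73.7, 109 and 80.4 RPKM in the controls and 66.6, 68.4, 96.1 and 73.5 RPKM in the cKO. Of 8 genes of meninges and fibroblasts, where several Wnt ligands are known to be made, edgeR called 0 without cKO 3 (1 at an unadjusted p under 0.05, and 0 by DESeq2), and their sum, led by Col1a1, was 34.3, 73.3 and 67.5 RPKM in the controls and 64.6, 34.6, 73.0 and 62.2 RPKM in the cKO, lowest in control 1 and cKO 2.

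Of 7 neuronal genes 2 were higher and 3 lower without cKO 3, with a sum led by Tubb3 of 1431, 1693 and 1349 RPKM in the controls and 1115, 1067, 1418 and 1030 RPKM in cKO 1 to 4. Of 6 genes of dividing cells 1 was higher and 2 were lower, with a sum led by Top2a of 10.2, 11.2 and 7.92 RPKM in the controls and 12.5, 8.83, 11.1 and 6.80 RPKM in the cKO. The 7 genes of the oligodendrocyte lineage, led by Olig1, summed to 120, 129 and 109 RPKM and to 108, 79.7, 126 and 66.3 RPKM in the same order, with 1 higher and 3 lower. In each of these lists genes were called in both directions.

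Microglial genes, led by C1qa, summed to 39.4, 49.3 and 61.2 RPKM in the controls and 35.3, 25.7, 42.3 and 27.4 RPKM in the cKO, with 3 of 6 lower without cKO 3. Hemoglobin and other red blood cell genes, led by Hbb-bs, summed to 200, 640 and 168 RPKM in the controls and 224, 77.8, 229 and 71.0 RPKM in the cKO, with 3 of 5 lower. These calls are by edgeR without cKO 3, whereas DESeq2 without cKO 3 called 0. The sums of cKO 1 and cKO 3 were above those of control 1 and control 3. Markers of neighboring regions gave 3 of 6 genes higher and 1 lower for the thalamus (led by Lhx9, 25.97 to 47.4 RPKM summed, Gbx2 not above 0.185 RPKM), and 0 for cortex and hippocampus (led by Emx2, 15.6 to 21.5 RPKM), for the cerebellum and hindbrain (led by Barhl1, 21.2 to 34.7 RPKM) and for the choroid plexus (led by Sostdc1, 3.39 to 6.02 RPKM, Ttr not above 0.548 RPKM). For these 3 lists edgeR without cKO 3 found 0, 1 and 0 genes at an unadjusted p under 0.05, and DESeq2 called 0. With all 7 libraries edgeR called 0 genes of the 13 lists, and DESeq2 called 3 of the thalamus and 1 each of neurons, dividing cells, radial glia and astrocytes, the oligodendrocyte lineage and microglia, where it called 7.41% of all genes higher and 3.04% lower. Of the 10 dorsal midbrain genes, 3 were higher and 2 lower without cKO 3.

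Lef1, Tcf7 and Tcf7l1 bind a common DNA element, and the RefSeq promoters of the members (GRCm38.p6, 250 bases before to 50 after each annotated start) were searched on both strands for its letters, CTTTGAT and CTTTGAA. Promoters were at hand for 34 of the 49 members, of which 3 held a match (8.82%), as did 9.88% of 27025 genes. The 3 were Wnt5b, Wnt11 and Dkk1, none of them called in the 3 edgeR fits, and the matches are shown in capitals, as a description of these windows, with the bases on either side, 5′ to 3′ on the strand of the gene.

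Wnt5b, chr6:119449421-119449487, minus strand: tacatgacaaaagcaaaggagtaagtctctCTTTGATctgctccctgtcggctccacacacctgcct
Wnt11, chr7:98835031-98835097, plus strand: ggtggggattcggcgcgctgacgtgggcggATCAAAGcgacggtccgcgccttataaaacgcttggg
Dkk1, chr19:30549577-30549643, minus strand: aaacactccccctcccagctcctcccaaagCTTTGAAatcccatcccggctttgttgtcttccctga

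The window of Wnt5b belongs to a start inside the gene, which GENCODE places at chr6:119432531-119544347. The stretch shown for Dkk1 also lies inside its gene, which GENCODE places at chr19:30545863-30549665. In Wnt11 the letters are on the opposite strand. Wnt11 was at 0.371, 0.405 and 0.344 RPKM in the controls and at 0.267, 0.221, 0.447 and 0.207 RPKM in cKO 1 to 4, and Dkk1 at 0.530, 0.371 and 0.482 RPKM and at 0.308, 0.633, 0.233 and 0.465 RPKM. Both overlapped between groups over the 7 libraries.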

How the data were processed

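The authors trimmed 100-base paired reads of poly(A)-selected, strand-specific libraries, aligned them with TopHat2 and Bowtie2 to GRCm38, and deposited raw HTSeq counts per gene for each of 7 libraries. Entries that named no gene, between 31.0% and 38.2% of a library's entries, were left out. Symbols, exon length, GC content (of the longest transcript, no genome sequence being at hand) and coordinates came from GENCODE for GRCm38, which held 52489 of the 52636 genes.

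Counts were tested with edgeR 4.0.16 in R 4.3.3 (filterByExpr, TMM factors, quasi-likelihood test, genotype as the only factor), with p adjusted over all genes by the Benjamini-Hochberg method. Alternatives used DESeq2 1.42.0, limma 3.58.1 (voom with sample weights), RLE factors, no filter, age as a covariate, P4 mice only, P2 cKO mice only, per-library offsets for a smooth trend on GC content and length (mgcv 1.9.3), and each library left out. The fit with both the offsets and cKO 3 left out, and DESeq2 without cKO 3, were chosen after seeing the data. The edgeR fit without cKO 3 was planned among those with each library left out. It was given gene by gene because cKO 3 stood apart. The code was tested on simulated counts. No pair of replicates agreed within sampling noise.

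Fold changes were given for members with an unadjusted p under 0.05, or an adjusted p under 0.05 without cKO 3 or with DESeq2. Fold changes of Wnt2b, Wnt9b, Fzd2, Fzd10, Ror2, Ryk, Axin2 and Lef1, and the values of Wnt10b, Wnt11 and Dkk1, fall outside this rule and were added after their values were seen. The 3 members of highest control level per class were given in every library. From each of the 4 pathway lists up to 4 genes of highest level were named by the same rule, and the 5 called by DESeq2 were added. The members, the 4 pathway lists and the 13 marker lists were chosen with earlier results of these data known. Floors cover counting error only. Some items are not reported here.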

Additional observations from a re-analysis of the deposited data

Results flagged for a closer look

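In each of the 45 members tested, the 4 cKO libraries were checked for a value far from the other 3 (a gap above Dixon's 95% limit), which chance alone gives for any of the 4 in about 1 of 20 groups, and less often for a given library. In 4 members (8.89%) the value of cKO 3 was that far off, as it was in 5.43% of all genes tested. Wnt4 was at 10.5 RPKM and Fzd9 at 5.33 RPKM in cKO 3, the highest of the 4, and Fzd8 at 0.936 RPKM and Ctnnb1 at 81.5 RPKM, the lowest of the 4. For Wnt4 and Fzd9 the value lay inside the control range, and for Fzd8 and Ctnnb1 it lay below the lowest control. No other cKO library was marked in this way for any member, and over all genes cKO 1, 2 and 4 were in 0.820%, 0.390% and 0.720%.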

How the results depend on the processing

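With all 7 libraries edgeR called 0 members and 0 other pathway genes, also with RLE factors, no filter, age as a covariate, P4 mice only, or the GC and length trend removed. Over all genes each of these fits called 1 gene, and the P4 mice only gave 0. DESeq2 called 4 members, 4 higher and 0 lower, and 5 other pathway genes higher. Limma-voom with sample weights, which gave cKO 3 the lowest weight (0.167), called 19 members (48.5% of all genes), 13 higher and 6 lower, and 25 other pathway genes higher and 13 lower. Controls against the P2 cKO mice gave 18 members (46.9% of all genes), 10 higher and 8 lower, and 25 other pathway genes higher and 13 lower.

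Leaving out each library in turn gave 0 to 17 members, 0 to 13 higher and 0 to 4 lower, and 0 to 23 other pathway genes higher and 0 to 12 lower, and only the fit without cKO 3 gave any. That fit called 46.7% of all genes, and each of the other fits of this kind called 1 gene. Without cKO 3, removal of the trend gave 11 members (34.0% of all genes), 9 higher and 2 lower, and 14 and 3 other pathway genes. DESeq2 without cKO 3 gave 18 members (39.9% of all genes), 13 higher and 5 lower, and 25 and 12 other pathway genes. The cause was not tested.

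The log2 fold change of Brn3b lay between -2.21 and -2.11 in the 17 alternatives. With the P4 mice only, 2 of each group, it was -2.18 and not called (edgeR adjusted p = 0.192), with fewer samples in the fit. Of 24 members followed, 23 kept their direction in each alternative that tested them, which for Wnt10b were 11 of the 17. Most of the 24 had been called or were apart in these same data, so a steady direction was partly set by that choice. Among members not followed, Ryk was at 0.07 with all libraries and -0.03 with age as a covariate. Axin1, Sfrp2 and Tcf7l1 went from below 0 with all libraries to above 0 with the trend removed without cKO 3. Wnt10b had no tested value with DESeq2 on all libraries, with the P4 mice only, or without cKO 2, cKO 3 or cKO 4 by edgeR. It also had none with the trend removed without cKO 3. Fzd10 was at -0.0284 with age as a covariate, and between -0.10 and 0.15 with each library left out, below 0 without control 1, cKO 1 or cKO 4. The library codes of the 2 genotypes share no number, and no pairs were formed. Depth limits members under about 0.1 RPKM, such as Wnt10a and Wnt10b.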
